A study of Mus musculus with 4 samples.

Results

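Exocytosis and granule docking genes were followed in mouse pancreatic islets held at low or high glucose. The list had 42 genes for proteins that dock, prime and fuse secretory granules, and 41 of them had an entry under the listed symbol among 28047 distinct entries of the deposited table. Where a gene had several entries, the one with the highest mean over the libraries was used. Stxbp3 had no entry under that symbol.

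Islets came from wild type male C57bl6 mice of 3 months and were pooled, so that no library stands for 1 animal. The pool was cultured overnight at 11 mM glucose and then starved at 2.8 mM glucose for 2 h, a step that both groups share. One group of 2 libraries was then held at 2.8 mM glucose and the other group of 2 at 16.8 mM glucose. The design text gives 12 h for both groups, while the labels of the 2.8 mM libraries give 2 h and those of the 16.8 mM libraries give 12 h, so that concentration and duration cannot be told apart if the labels hold. Nothing states that the 2 libraries of a group came from separate cultures, and p-values then measure only the spread between these samples, which may be technical. Whole islets hold beta, alpha, delta and other cells, and a lower value in such a sample cannot tell fewer cells of a type from less RNA per cell.

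Hormone granules reach the plasma membrane with the help of Rab GTPases and their effectors. There, Munc18, Munc13, RIM and CAPS proteins help a vesicle SNARE (a VAMP) to pair with the target SNAREs, a syntaxin and SNAP-25 or its relative SNAP-23. Calcium entering the cell is sensed by synaptotagmins and Doc2 proteins, membrane fusion releases the hormone, and NSF with alpha-SNAP takes the used SNARE complex apart. In beta cells this is the last step between glucose metabolism and insulin release.

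Values are RPKM, read numbers divided by sequence length and by library size. The kilobases are those of the genomic span, introns included, so RPKM values are compared here between libraries for 1 gene and not between genes. The depth recovered from the values was 50800000 to 60710000 reads per library. Log values correlated at r = 0.98 between the replicates of either group and at 0.927 to 0.939 across groups, over 7867 transcripts, which are not independent replicates. Of the 41 genes, 21 had a mean of at least 1 RPKM and entered the main test, limma on log2(RPKM + 0.5). Its log2 fold changes understate the change of low genes. The other 20 were below that minimum and are described by their values and by a second fit, voom on reads reconstructed from RPKM, depth and span. The span was settled for 23 of the 41 genes. For the other 18, which include Syt5, Unc13a, Rab37, Rph3al, Stx3, Unc13b, Rims2 and Cadps2, it is approximate, so that their reconstructed reads and the voom p-values that use them are approximate too, while ratios of RPKM do not depend on it.

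At 16.8 mM glucose, 5 of the 21 genes tested were higher (Syt5, Unc13a, Ptprn, Syt13 and Rph3al), 1 was lower (Rab37), and 15 did not pass an adjusted p of 0.05. That is 28.6% called, against 33.4% of all 7867 transcripts tested, so the total share is near the background and is not a result about these genes. By direction, 23.8% of the genes were called higher against 10.7% of all transcripts, and 4.76% were called lower against 22.8%. The median log2 fold change was 0.11 for the 21 genes and -0.11 for all transcripts tested, and the median absolute value was 0.19 against 0.23. After a shift of every library to a common median, 11 of the 21 were called higher and 3 lower, against 21.1% and 26.7% of all transcripts (47.9% in all). The share of all calls that were higher moved from 31.9% to 44.1% with that centring. All 6 genes named as called were called in the same direction in each of 15 alternative settings, the removal of any library included.

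**Figure D1:**
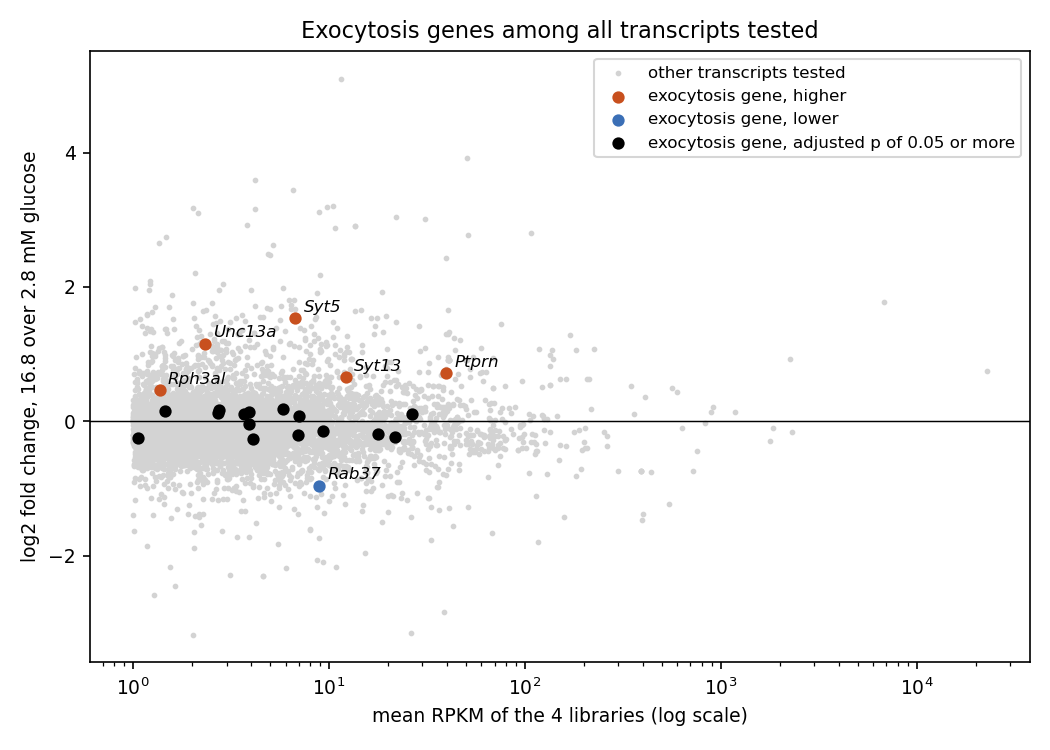
Log2 fold change (16.8 over 2.8 mM glucose, of RPKM + 0.5) against the mean RPKM of the 4 libraries on a log axis, with 1 point per transcript tested and the 21 exocytosis genes in colour or black. The 5 higher genes lie between 0.46 and 1.54, Rab37 lies at -0.96, and the 15 other exocytosis genes lie between -0.26 and 0.19.

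The promoters of the genes called higher are shown so that sequences of genes that moved together can be read side by side. RefSeq promoter sequences matched 29 of the 41 genes, among them Ptprn, Unc13a and Rph3al of the 6 called. Each line holds the 250 bases upstream of a start in build GRCm38.p6, read 5′ to 3′ on the minus strand, where all 3 genes lie, and for Ptprn the more upstream of the 2 listed starts. Capitals mark TGACG, the core of the cAMP response element, and the GC box GGGCGG, each on either strand. The windows are chr1:75264209-75264458 for Ptprn, chr8:71671758-71672007 for Unc13a and chr11:75925892-75926141 for Rph3al.
Ptprn: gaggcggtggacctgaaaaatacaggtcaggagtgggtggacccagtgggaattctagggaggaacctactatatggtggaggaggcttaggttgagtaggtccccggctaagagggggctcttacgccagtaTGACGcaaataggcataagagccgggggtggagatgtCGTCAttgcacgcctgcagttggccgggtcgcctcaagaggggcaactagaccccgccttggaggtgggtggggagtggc
Unc13a: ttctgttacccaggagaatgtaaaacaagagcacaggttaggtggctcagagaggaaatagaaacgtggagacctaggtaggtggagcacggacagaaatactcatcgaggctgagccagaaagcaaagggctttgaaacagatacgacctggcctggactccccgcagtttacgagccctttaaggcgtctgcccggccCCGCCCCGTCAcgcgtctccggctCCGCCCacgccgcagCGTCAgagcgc
Rph3al: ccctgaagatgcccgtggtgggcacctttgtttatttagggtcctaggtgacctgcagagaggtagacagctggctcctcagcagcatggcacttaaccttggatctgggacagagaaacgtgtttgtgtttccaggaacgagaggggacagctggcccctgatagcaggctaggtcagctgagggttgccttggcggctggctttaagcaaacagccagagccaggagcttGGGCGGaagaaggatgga

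TGACG stood in 2 places in the Ptprn window and in 2 in the Unc13a window, and in none in that of Rph3al. The window at the second Ptprn start, not printed, held no TGACG and 1 GC box. It was found in 17.8% of all 32851 promoter windows of the same length and in 9 of the 32 windows of exocytosis genes (28.1%). In the Unc13a sequence a GC box and a TGACG match lie next to each other and form 1 run of capitals. The GC box was in 32.7% of all windows and in 59.4% of the exocytosis windows, those of Unc13a, Rph3al and the second Ptprn start included. The whole cAMP response element TGACGTCA was in 1.55% of all windows and in 0 of the 32. The E-box CACGTG was in 6.02% of all windows and in 7 of the 32 (21.9%), at Cadps2, Napa, Nsf, Rab27a, Stxbp2, Syt14 and Unc13b. Of these 7, Napa, Rab27a and Stxbp2 were tested and not called, and of the 4 under the minimum Cadps2 and Unc13b were lower on reads. TGACGTCA holds TGACG, so these counts overlap. A match to letters is a description of a window and says nothing of a factor bound there. Rab37, Syt5 and Syt13 were also called and are named only.

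Synaptotagmins showed the largest rise among the genes tested. Syt5, a calcium-binding vesicle synaptotagmin, lies on chromosome 7, 4491370 to 4498169 (mm9 build). It measured 3.47 and 2.95 RPKM in the 2.8 mM libraries and 10.2 RPKM in both 16.8 mM libraries. The groups did not overlap, and both high glucose libraries were far above both low glucose libraries. The mean rose from 3.21 ± 0.364 to 10.2 ± 0.015 RPKM (SD, n = 2 each), a ratio of 3.19, with a log2 fold change of 1.54 (SE 0.11, limma adjusted p = 0.000293). Without any 1 library the log2 fold change stayed between 1.44 and 1.64.

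Syt13, on chromosome 2, 92755255 to 92796215, codes for an unusual synaptotagmin that lacks the residues binding calcium in its relatives. It was at 9.75 and 8.87 RPKM at 2.8 mM and at 14.9 and 15.1 RPKM at 16.8 mM glucose. Again the groups were apart, with the high libraries close to each other. The ratio of means was 1.61 and the log2 fold change 0.66 (SE 0.11, limma adjusted p = 0.00603). At least 18882 reads stood behind each of its values.

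Of the other 6 synaptotagmins, 3 were tested and not called and 3 were under the minimum. Syt7, a slow, high-affinity calcium sensor, had means of 4.53 and 3.69 RPKM at 2.8 and 16.8 mM, with a log2 fold change of -0.26 (95% interval -0.48 to -0.04, limma adjusted p = 0.0712). It passed in the fit on reads (voom adjusted p = 0.0126) and under median centring. Syt4, which binds calcium poorly and acts on granule traffic, had a ratio of means of 0.849, a main log2 fold change of -0.23 (-0.53 to 0.06), and passed on reads (adjusted p = 0.0442). Syt11, another non-calcium-binding member, had means of 1.35 and 1.55 RPKM (0.15, interval -0.04 to 0.34). The pseudogene 5830417I10Rik lies inside the annotated Syt11 gene on the other strand, outside the shorter transcript span over which the Syt11 values were whole reads.

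Syt9, a fast calcium sensor of dense core granules, was below 1 RPKM. It measured 0.0808 and 0.0724 RPKM at 2.8 mM and 0.0539 and 0.0469 RPKM at 16.8 mM glucose. All 4 values are low, and both high glucose libraries were under both low ones. On reads it fell to 65.8% of the low glucose mean (log2 fold change -0.60, SE 0.13, voom adjusted p = 0.00114), with at least 424 reads in every library. Syt5 and Syt9 therefore had changes of opposite sign on reads, where Syt5 stood at 1.67. Syt3 (mean 0.29 to 0.239 RPKM, voom log2 fold change -0.28, interval -0.63 to 0.08) and Syt14 (mean 0.113 to 0.132 RPKM, 0.21, interval -0.02 to 0.45) were not called.

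**Figure D2:**
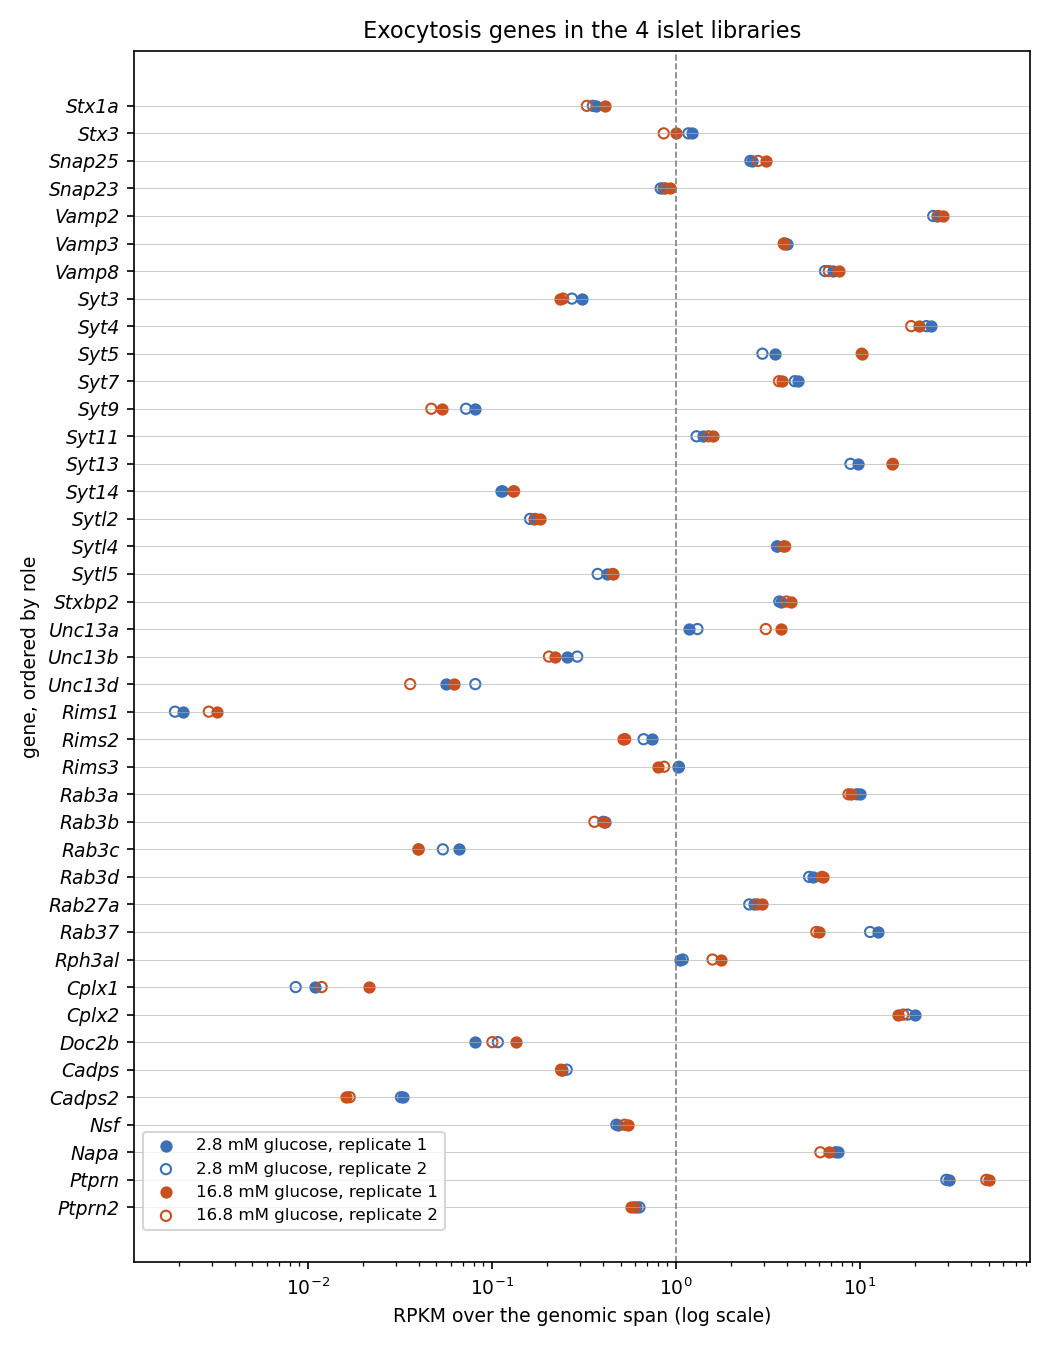
RPKM over the genomic span (log axis) of the 41 exocytosis genes, ordered by role, with 1 circle per library: blue for 2.8 mM, orange for 16.8 mM glucose, filled for replicate 1 and open for replicate 2. The dashed line marks the minimum of 1 RPKM. Syt5, Unc13a and Rab37 show the widest gaps between colours among the genes over that line.

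Priming factors of the Munc13 family differed among themselves. Unc13a, the gene of Munc13-1, which opens syntaxin for SNARE pairing, lies on chromosome 8, 74150614 to 74195656. It measured 1.18 and 1.31 RPKM at 2.8 mM glucose and 3.73 and 3.08 RPKM at 16.8 mM. No value of one group fell in the range of the other, although the high libraries were further from each other than the low ones. The ratio of means was 2.73 and the log2 fold change 1.16 (SE 0.11, limma adjusted p = 0.000621).

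Unc13b, the gene of Munc13-2, had means of 0.273 ± 0.025 and 0.212 ± 0.011 RPKM (SD, n = 2 each) and was lower on reads (log2 fold change -0.36, voom adjusted p = 0.00655). Both of its entries had a ratio of 0.776 or 0.777. Unc13d, which acts in granule release of blood cells, lay between 0.036 and 0.0813 RPKM with overlapping groups, and its fewest reads were 29. Its change could not be shown at this depth (voom interval -1.15 to 0.20).

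RIM proteins tether granules near calcium channels, and all 3 measured genes were under the minimum. Rims2, the main RIM of endocrine cells, had means of 0.704 and 0.523 RPKM and was lower on reads (log2 fold change -0.43, voom adjusted p = 0.00105), with a ratio of 0.742 or 0.743 in each of its 2 entries. Rims3 had means of 1.03 and 0.833 RPKM and was also lower (-0.31, adjusted p = 0.0139). Rims1 was at 0.0019 to 0.0032 RPKM and was not called (0.61, interval 0.05 to 1.17, adjusted p = 0.0754). In limma without a minimum neither of the 2 lower RIM genes was called (Rims2 -0.24, adjusted p = 0.0724, and Rims3 -0.20, adjusted p = 0.0815). They were not fitted under median centring, which moved log2 fold changes of tested transcripts upward by a median of 0.08.

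CAPS proteins prime dense core granules. Cadps2, on chromosome 6, 23212773 to 23789421, had the lowest ratio among the 20 genes under the minimum. It was at 0.0328 and 0.0321 RPKM at 2.8 mM and at 0.0161 and 0.0169 RPKM at 16.8 mM glucose. Within each group the libraries were nearly alike, and the groups did not overlap. On reads the log2 fold change was -0.98 (SE 0.12, voom adjusted p = 3.29e-06), and its other 3 entries had ratios of 0.424 to 0.479, entries that share most of their reads. Its relative Cadps had means of 0.247 and 0.238 RPKM and was not called (-0.05, interval -0.24 to 0.13).

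Rab GTPases label granules for transport and docking, and Rab37 held the largest fall among the genes tested. The gene, on chromosome 11, 114952745 to 115023550, encodes a Rab of secretory granules described first in mast cells. Its values were 12.5 and 11.3 RPKM at 2.8 mM and 6.02 and 5.79 RPKM at 16.8 mM glucose. Both high glucose libraries stood at about the same level, well under both low ones. The mean fell to 49.5% of that at 2.8 mM (log2 fold change -0.96, SE 0.11, limma adjusted p = 0.00143). A longer Rab37 entry, at 1.53, 1.39, 0.804 and 0.75 RPKM in the same order, was also lower (-0.62, adjusted p = 0.00215), and part of its reads is shared with the first. Cd300lf lies inside Rab37 on the other strand, with reads estimated at 0.576% of those of Rab37.

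Rab3c, a vesicle Rab known mostly from neurons, measured 0.0667 and 0.0542 RPKM at 2.8 mM and 0.0396 and 0.04 RPKM at 16.8 mM glucose. It was lower on reads (log2 fold change -0.60, SE 0.13, voom adjusted p = 0.00143), and the groups did not overlap. The 4 other Rab genes were not called in either fit. Rab3a, the abundant vesicle Rab, had means of 9.81 and 8.79 RPKM (main log2 fold change -0.15, interval -0.40 to 0.10). Rab27a, which tethers insulin granules to the cell cortex, had means of 2.58 and 2.85 RPKM (0.12, interval -0.09 to 0.33). Rab3b had a ratio of 0.942 and overlapping groups.

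Rph3al codes for Noc2, which binds Rab3 and Rab27 and is needed for regulated hormone release. On chromosome 11, 75644501 to 75751931, it measured 1.05 and 1.09 RPKM at 2.8 mM and 1.75 and 1.58 RPKM at 16.8 mM glucose. The low libraries lay close together and both high libraries were above them. The ratio was 1.56 and the log2 fold change 0.46 (SE 0.08, limma adjusted p = 0.00644). The second Rph3al entry, with a mean of 0.942 RPKM and so under the minimum, had a ratio of 1.81. The 3 synaptotagmin-like genes, whose proteins bind Rab27 on granules, were not called in either fit: Sytl4, or granuphilin, had a ratio of 1.09, Sytl2 of 1.07 and Sytl5 of 1.14.

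Ptprn was the most abundant per exon length of the 23 genes with a settled span. The gene, which encodes IA-2, an autoantigen of type 1 diabetes that spans the granule membrane, lies on chromosome 1, 75243616 to 75260783. It was at 30.4 and 29.4 RPKM at 2.8 mM and at 50.2 and 48.5 RPKM at 16.8 mM glucose. The groups did not overlap, and the replicates of each lay within a narrow range. The ratio was 1.65 and the log2 fold change 0.71 (SE 0.12, limma adjusted p = 0.0060), on at least 26266 reads per library.

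Ptprn2 codes for phogrin, or IA-2 beta, the relative of IA-2. Its values were 0.608 and 0.634 RPKM at 2.8 mM and 0.574 and 0.597 RPKM at 16.8 mM glucose. The high libraries were slightly under the low ones, a difference that did not pass on reads (log2 fold change -0.09, interval -0.27 to 0.10, voom adjusted p = 0.47). Its 792448 bases of span are nearly all intron, which keeps its RPKM low. The miRNA gene Mir153 lies within it, with reads estimated at 0.444% of those of Ptprn2.

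Levels of different genes can be set side by side as RPKM recomputed over exon length. That scale could be computed for 23 of the 41 genes. Whether the counted reads include intron reads was not tested, and if they do, the scale overstates genes with long introns. On it Ptprn had the highest mean over the 4 libraries, 192.6, followed by Syt13 with 132.5 and Ptprn2 with 102.0. The next levels were 89.6 for Snap25, 54.1 for Napa, 53.6 for Syt4 and 48.2 for Rab27a. Vamp2 and Vamp8 followed at 46.9 and 46.8, and no test compared genes on this scale. At the low end were Unc13d with 0.235 and Cplx1 with 0.19.

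Core SNARE genes were not called by the main test. Snap25, the plasma membrane SNARE, had means of 2.56 ± 0.034 and 2.94 ± 0.199 RPKM (SD, n = 2 each), and the log2 fold change was 0.17 (95% interval -0.05 to 0.38). Its relative Snap23, under the minimum, had a ratio of 1.07. Vamp2, the granule SNARE of beta cells, had means of 25.5 ± 0.785 and 27.5 ± 1.25 RPKM (log2 fold change 0.11, interval -0.18 to 0.39). Median centring called Snap25 and Vamp2 higher, together with Syt11, Stxbp2, Rab3d and Rab27a, and quantile normalization called the same genes apart from Vamp2. Vamp3 had means of 3.96 and 3.86 RPKM, and its log2 fold change of -0.03 turned to 0.05 under median centring, not called in either.

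Stx1a, the syntaxin of granule fusion, was at 0.37, 0.354, 0.414 and 0.328 RPKM in the 2 low and then the 2 high glucose libraries. Its groups overlapped, and the voom log2 fold change was 0.03 with an interval of -0.26 to 0.32. Stx3, which serves newcomer granules, had means of 1.20 and 0.929 RPKM. It just missed the main threshold (log2 fold change -0.25, interval -0.45 to -0.05, limma adjusted p = 0.0557) and passed on reads (-0.37, adjusted p = 0.00631), while a second entry had a ratio of 0.745.

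**Figure D3:**
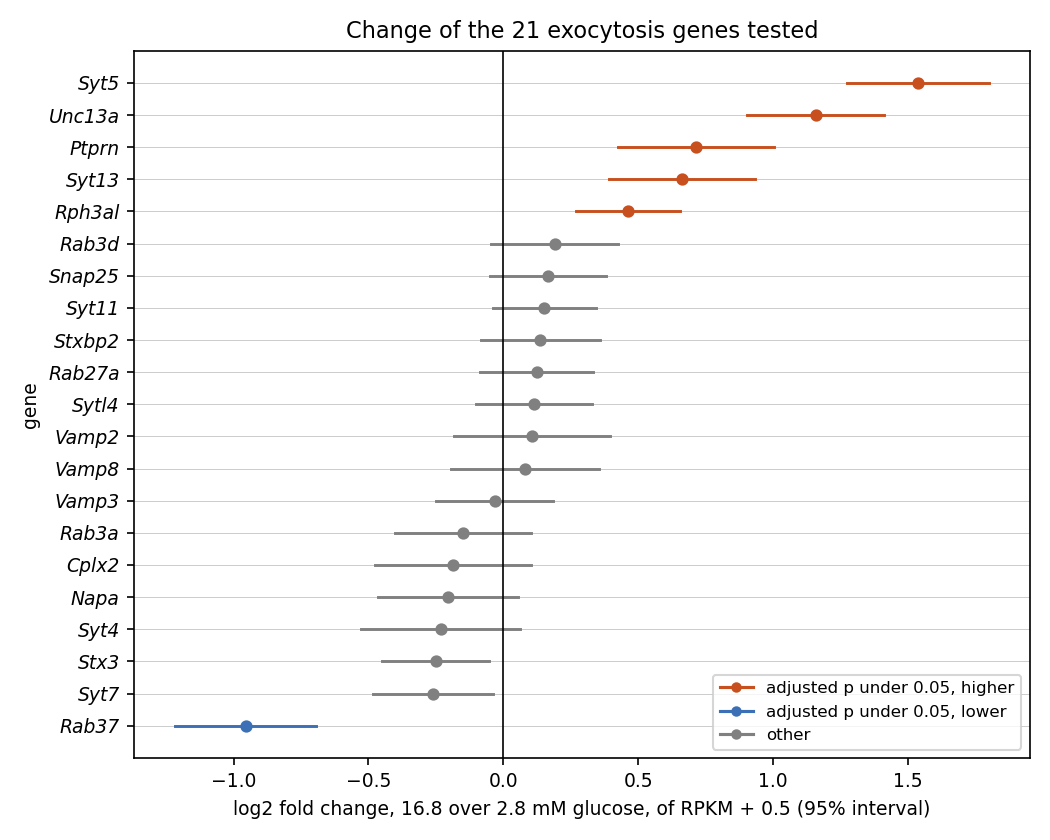
Log2 fold change (16.8 over 2.8 mM glucose, of RPKM + 0.5) with its 95% interval from limma for the 21 exocytosis genes with a mean of at least 1 RPKM. Orange and blue mark genes with an adjusted p under 0.05, and grey the 15 others, whose intervals reach from -0.53 to 0.43 at their widest.

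Complexins clamp and promote fusion. Cplx2 had means of 19.0 and 16.7 RPKM and was not called (log2 fold change -0.19, interval -0.48 to 0.10). Cplx1 was at 0.0086 to 0.0215 RPKM, with as few as 14 reads in a library, and its voom interval ran from -0.10 to 1.56. Doc2b, a calcium sensor of granule fusion, had overlapping groups between 0.0812 and 0.136 RPKM. Of the genes that recycle SNAREs, Nsf had a ratio of 1.12 (voom log2 fold change 0.16, interval -0.03 to 0.35) and Napa, the gene of alpha-SNAP, of 0.86 (main log2 fold change -0.21, interval -0.46 to 0.05). Neither was called in either fit.

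Over all 41 genes, the fit on reads called 5 higher and 10 lower, or 36.6%, against 42.9% of 17488 transcripts, of which 13.8% were higher and 29.1% lower. The 5 higher genes are those of the main fit. The 10 lower are Rab37, Syt7, Stx3, Syt4, Unc13b, Rims3, Cadps2, Syt9, Rab3c and Rims2. Of these 10, 6 belong to the 20 genes under the minimum, where voom called 0 higher and 14 in neither direction; at an unadjusted p under 0.05, 1 of the 20 (Rims1) was higher. limma without a minimum called 5 higher and 2 lower of the 41, against 4.56% and 9.52% of 26272 entries (14.1% in all), and of the 6 low genes that were lower on reads it called Cadps2 alone. In the RPKM values, the 2 groups did not overlap for 36 of the 41 genes, 19 higher and 17 lower, against 22.0% higher and 38.2% lower among all entries above 0.

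**Figure D4:**
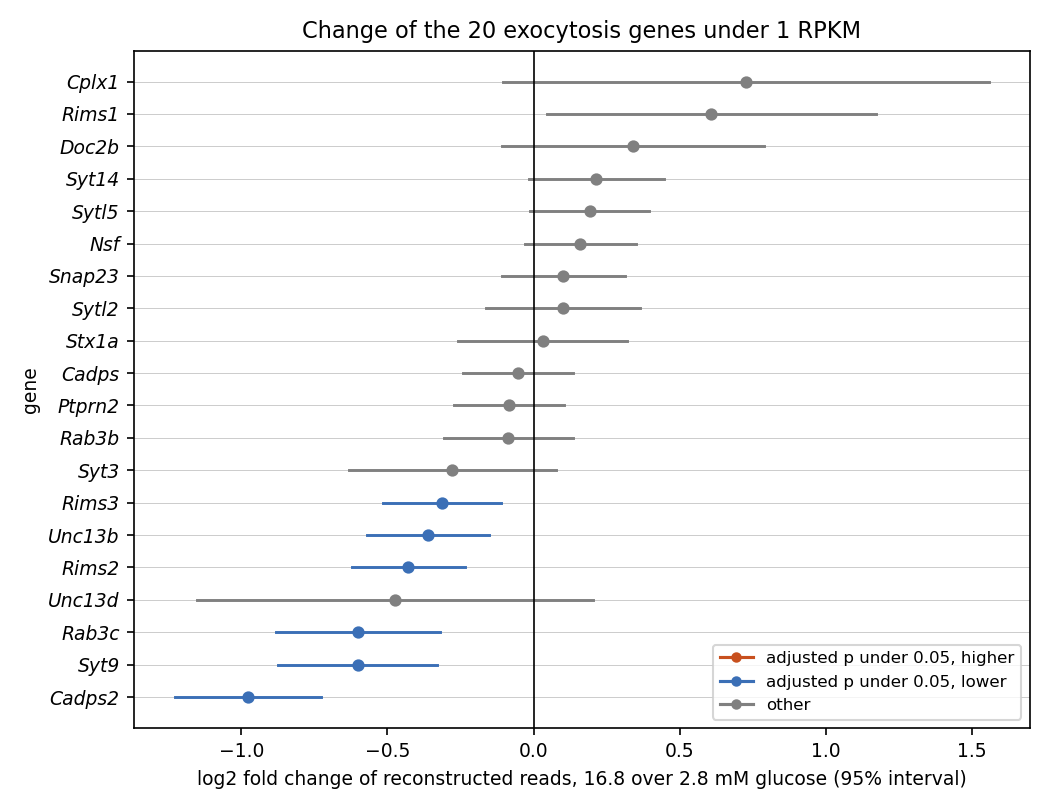
Log2 fold change of reconstructed reads (16.8 over 2.8 mM glucose) with its 95% interval from voom for the 20 exocytosis genes with a mean under 1 RPKM. Blue marks the 6 genes that were lower, from Rims3 at -0.31 to Cadps2 at -0.98, and the widest intervals belong to Cplx1 and Unc13d.

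Munc18 proteins hold syntaxin and guide SNARE pairing. Stxbp2 (Munc18-2) had means of 3.69 and 4.10 RPKM and was not called (log2 fold change 0.14, interval -0.08 to 0.36). The table holds an entry under Stxbp3a, an older symbol of Stxbp3, which the rule does not count. It measured 0.864 and 0.819 RPKM at 2.8 mM and 0.562 and 0.537 RPKM at 16.8 mM glucose. It was lower on reads (-0.61, voom adjusted p = 7.79e-05), where its span, and so that p-value, is approximate.

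Other genes of the pathway were read from a second list of 78, all found, of which 18 were tested. Stx12 and Stx16, syntaxins of endosomes and the trans-Golgi, were higher, with log2 fold changes of 0.35 (limma adjusted p = 0.02) and 0.36 (0.0275). Sytl1, a Rab27 effector, fell the most: it was at 2.22 and 2.27 RPKM at 2.8 mM and at 1.33 and 1.37 RPKM at 16.8 mM glucose (-0.57, adjusted p = 0.00287). Snapin, a SNAP-25 binding protein (-0.36, adjusted p = 0.0465), Vamp4 of the trans-Golgi (-0.30, 0.0279) and Stx7 of late endosomes (-0.29, 0.0403) were also lower, as was Napg (gamma-SNAP). The share called was 38.9% against the background of 33.4%, with a median log2 fold change of -0.10. Of these 7 calls, Sytl1 alone was kept on removal of each library in turn. Without 1 library the counts were 0 to 3 higher and 1 to 2 lower.

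Among the low genes of that list, on reads, 3 were picked out after their values were seen. Rapgef4, which encodes the cAMP sensor Epac2 of beta cell granules, measured 0.262, 0.246, 0.446 and 0.477 RPKM, a ratio of 1.82 (voom adjusted p = 6.06e-07). The span of Rapgef4, and so that p-value, is approximate. Syt16 had a ratio of 2.84 and Napb, the gene of beta-SNAP, of 0.57 (voom adjusted p of 1.59e-09 and 2.09e-05). The fit on reads called 11 higher and 21 lower of 73, or 43.8%, near the 42.9% of all transcripts in that fit.

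The labelled tissue was checked against cell type markers. Of 7 beta cell markers all were above 1 RPKM. At 16.8 mM glucose limma called 5 higher (Ins1, Ins2, Mafa, Ucn3 and Pdx1), and voom called all 7 higher. Of the alpha, delta and PP cell markers, limma called 0 of 5, 3 and 2 tested, while 2, 1 and 1 had an unadjusted p under 0.05 and voom called 2, 1 and 1. In both cases the 2 alpha markers were 1 higher and 1 lower, and the delta and PP markers were higher. Among duct markers limma called 1 of 2 tested higher (Spp1), and voom called 2 of 3 higher. Among Schwann cell and neuron markers limma called 2 of 2 higher (Tubb3 and Th). Of 5 such markers fitted by voom, 2 were called higher and 1 lower. Leukocyte and stromal markers had 0 calls by limma or voom, none of the 3 tested by limma with an unadjusted p under 0.05, and all 4 endothelial markers were under 1 RPKM, where voom called 2 of them higher. No marker found was at 0 in all libraries.

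Acinar markers differed between replicates as well as between groups. All 7 found of 8 had higher means at 16.8 mM, and their summed level was 82.85 and 240.5 RPKM in the 2.8 mM libraries and 204.2 and 429.4 RPKM in the 16.8 mM libraries. By limma 0 of 7 were called, 4 had an unadjusted p under 0.05, and on reads all 7 were higher. Vamp8, Rab3d and Stxbp2 also serve zymogen granules of acinar cells. Vamp8 was at 7.11, 6.46, 7.65 and 6.77 RPKM in the same order, with overlapping groups. In each group the Vamp8 value of replicate 2 was below that of replicate 1. Summed over the 41 exocytosis genes, replicate 2 was below replicate 1 as well (189.0, 179.0, 212.4 and 203.9 RPKM). Genes with high RPKM weigh most in that sum. Rab3d was at 5.57, 5.29, 6.32 and 6.21 RPKM (log2 fold change 0.19, interval -0.05 to 0.43), and Stxbp2 also had lower values in replicate 2 of each group. The part of acinar RNA, and of the rise in beta cell markers, in the changes given above was not tested.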

How the data were processed

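Total RNA was extracted from mouse islets and made into 4 libraries with a TruSeq RNA kit, as the paper states. There were 2 libraries per glucose concentration, grouped by the labels' treatment. The authors deposited 1 table of RPKM values. STAR, bedtools, DESeq and mm9 are named in the submitters' processing notes; strand use is not given in the sources used here. Of low values, 79.8 to 82.4% were whole reads over the genomic span and 17.3 to 19.1% over exons. Depth was recovered from lncRNA values, which were whole within 0.1 read. All sample columns were used.

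Of 33923 entries, 28047 were distinct. The main test was limma 3.58.1 (R 4.3.3), with trend, on log2(RPKM + 0.5) over transcripts averaging 1 RPKM or more, Benjamini-Hochberg adjusted at 0.05. voom used reconstructed reads (mean of at least 20). Scripts were tested on simulated data. Alternatives changed the minimum, the added RPKM, scaling, trend, replicate block and libraries. Values in every library are given for genes called by limma, genes called by voom with a ratio of at least 1.5 either way, and the 3 highest per exon length; a few more were named after their values were seen. The genes and lists were chosen with earlier results of these data known. Spans and coordinates come from the GENCODE annotation of mm9, and promoters from RefSeq on GRCm38.p6.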

Additional observations from a re-analysis of the deposited data

How the results depend on the processing

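The calls of Syt5, Unc13a, Ptprn, Syt13, Rph3al and Rab37 kept their direction and their side of the threshold in all 15 alternatives. The counts moved more. Of the exocytosis genes, median centring called 11 higher and 3 lower and quantile normalization 10 and 2, against 5 and 1 in the main fit. Lower calls were 2 without a minimum and 2 with 0.1 RPKM added at a minimum of 0.1, and 10 with voom. Vamp3 turned from -0.032 to 0.053 under median centring and 0.064 under quantile normalization, and Vamp8 ranged from -0.002 (without high glucose replicate 1) to 0.163 on leaving out a library, none of them called. All transcripts called higher numbered 838 in the main fit, 1409 with 0.1 RPKM added at a minimum of 0.1, 1662 under median centring, 1576 under quantile normalization and 2405 with voom. Those called lower numbered 1790, and 3436 with 0.1 RPKM added at that minimum and 5096 with voom. Voom and the lower minimum tested more transcripts. Other exocytosis genes called higher were 5 without a minimum, 7 with 0.1 RPKM and 11 with voom, against 2. Those called lower were 9 with 0.1 RPKM, 3 without the trend and 21 with voom, against 5.

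Leaving out each library in turn gave 5 higher and 1 to 2 lower exocytosis genes (Stx3 added without high glucose replicate 1), 714 to 904 higher and 1059 to 1865 lower transcripts, with 1059 without high glucose replicate 2, and 0 to 3 higher and 1 to 2 lower other exocytosis genes. The lone library left in a group was assumed to vary like the others. The cause of these moves was not tested.

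The libraries share only replicate numbers, and the deviations of same-numbered libraries correlated at 0.31. With the replicate block, limma called 6 higher and 3 lower exocytosis genes (Rab3d higher, Syt7 and Stx3 lower in addition) and 1232 higher and 2835 lower transcripts, or 51.7%, while it called 2 higher and 6 lower other exocytosis genes. Voom with the replicate block called 14 higher and 13 lower exocytosis genes, 3328 higher and 6890 lower transcripts, or 58.4%, and 14 higher and 24 lower other exocytosis genes. Among genes with a settled span, precision at low depth is limited for Cplx1, with as few as 14 reads, and for Unc13d, with 29. Where the span is approximate, the reads are not settled. Over the shortest annotated span, the fewest would be 3 for Rims1, 18 for Syt3 and 30 for Unc13b.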
